A study of Arabidopsis thaliana with 24 samples.

Results

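In Arabidopsis thaliana Col-0 shoots treated with bleomycin and mitomycin, 100 probe sets were taken as transcripts that peak at 6 h, out of 22746 probe sets on the ATH1 array after its own controls were set aside. The rule took, for each probe set, the 6 h shoot mean of log2(signal + 16) minus the highest of the 5 shoot means at the other times, and kept the 100 largest of these scores. COR15A, COR15B, LTI30, COR47 and GI were left out by the rule. They scored 1.29, 2.05, 0.53, 0.90 and 1.62, so that all of them but LTI30 would have been among the first 100. The members were thus chosen by their shoot values, and the shoot values below describe them and carry no test. The root arrays were not used by the rule, and the tests are on roots.

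The plants grew in 16 h days and were treated on day 16, starting 3 h after lights on, with 1.5 µg/ml bleomycin and 22 µg/ml mitomycin in the medium. The 12 groups are shoots at 0.5, 1, 3, 6, 12 and 24 h and roots at the same 6 times, all wild type and all treated, with 2 arrays in each group and 24 in all. The 6 h samples therefore stood 9 h after lights on, those of 3 h and 12 h stood 6 h and 15 h after lights on, and those of 24 h were back at 3 h after lights on. For the samples of 0.5 to 12 h, length of treatment and hour of day cannot be told apart, while 0.5 h and 24 h lie at nearly the same hour. Untreated plants were not analysed here. In pieces of whole tissue, fewer cells of a type and less RNA per cell cannot be told apart either.

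Bleomycin breaks DNA strands and mitomycin cross-links them. Independently of any treatment, many Arabidopsis transcripts follow the day: the circadian clock, light and the sugar made by photosynthesis set the hours at which each is highest. Shoots make starch in chloroplasts by day and break it down at night, while roots live on sugar sent from the shoot. Of the genes left out, GI is a clock component with an afternoon peak, and the COR and LTI genes encode protective proteins that accumulate in the cold and in drought.

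Median signals per array were 35.96 to 39.91 in shoots and 45.25 to 47.76 in roots, and the 2 arrays of a group correlated at 0.984 to 0.992 in shoots and 0.987 to 0.993 in roots over all probe sets. Shoot 12 h array 1 and shoot 24 h array 2 were nearer to the root arrays by correlation (0.714 and 0.711), where the remaining 10 shoot arrays had 0.678 to 0.692. Without both arrays, the rule kept 87 of the 100 members. Of the shoot markers, 3 of 10 had a probe set of their own in the annotation table (LHCB4.1, LHCB4.2 and RCA). Their summed signal was 9416 to 19720 on shoot arrays and 235 to 481 on root arrays. Of the root markers, 5 of 10 had one, and their sum was 970 to 2123 in shoots and 3294 to 4205 in roots. None of these markers was at 0 on any array. AT5G44020, taken as a root marker, stood higher in shoots, with mean log2 values of 9.52 in shoots and 7.91 in roots, and the other 4 stood higher in roots.

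The annotation table paired 55 members with 1 gene each, which were 55 different genes, and 2 members with several genes. The other 43 members were not listed there and stay unnamed. All 100 were tested, since no filter on low values was applied. Scores ran down to 0.59 from 2.64, with a median of 0.86, and 35 members scored at least 1. The score was positive for 3171 probe sets, 13.9% of all. The 3 members with the lowest scores (254563_at, 253140_at and 246007_at) had 0.591, 0.591 and 0.591, and the 3 probe sets just outside (256567_at, 260412_at and the probe set of AT1G74940) had 0.590, 0.587 and 0.586, so the list ends at no break in the scores.

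In shoots, both 6 h arrays lay above the other 10 arrays for all 100 members, a result of how they were chosen. The median member stood 1.89 above its 0.5 h mean on the log2 scale, 1.97 above 1 h, 1.17 above 3 h, 1.03 above 12 h and 2.25 above 24 h, which are 3.72-fold, 3.92-fold, 2.25-fold, 2.04-fold and 4.77-fold. The next highest time was 12 h for 50 members and 3 h for 43, and 0.5, 1 or 24 h for the remaining 4, 2 and 1. For 86 members the 3 h mean was above the 0.5 h mean. For 74 members the 24 h mean was below the 0.5 h mean, with a median difference of -0.33, where both times lie in the first hours of light, and 24 h was the lowest shoot time for 61. At 0.5 and 1 h, 30 members were below the array's median signal on all 4 shoot arrays, and 99 were above it on both arrays at 6 h.

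**Figure D1:**
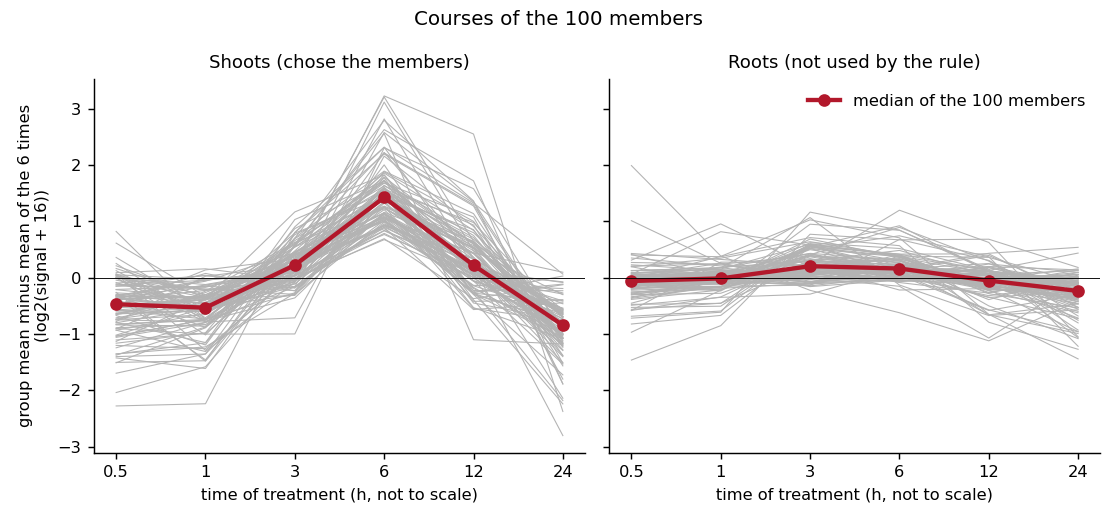
Course of each of the 100 members in shoots (left) and roots (right), as the group mean minus the mean of the 6 group means on the log2(signal + 16) scale, grey lines, with the median in red. The shoot lines meet in a peak at 6 h because they were chosen for it, and the root median is highest at 3 h (0.21) and 6 h (0.16) and lowest at 24 h (-0.23).

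Among cell wall, secreted and defence-related proteins, AT5G62360, of the invertase and pectin methylesterase inhibitor family, had the highest score of a named gene. Its shoot signals were 7.16 and 1.12 at 0.5 h, 10.7 and 7.83 at 1 h, 60.6 and 61.4 at 3 h, 576 and 584 at 6 h, 80.5 and 89.6 at 12 h and 16.5 and 13.2 at 24 h. The 6 h mean was 5.9-fold above the 12 h mean, the next highest, and the arrays at 0.5 and 1 h were near the bottom of the scale. AT1G20030, of the thaumatin-like family of pathogenesis-related proteins, had 22.6 and 20.9 at 0.5 h, 19.9 and 16 at 1 h, 55 and 59.4 at 3 h, 309 and 235 at 6 h, 2.54 and 11.6 at 12 h and 1.3 and 10.6 at 24 h in shoots, so that it was already low at 12 h. AT2G37130, a peroxidase, had 97.8 and 118 at 6 h and 22.6 to 45 on the other shoot arrays. AT2G15880, a leucine-rich repeat extensin-like cell wall protein, had 112 and 92.2 at 6 h and 2.23 and 6.4 at 24 h. The extensin-like gene was lowest at 24 h, while the peroxidase was as high at 24 h as at 0.5 h to within the gap between its arrays. LCR69, which encodes a small defensin-like peptide, had 617 and 718 at 6 h and 94.8 to 423 at the other shoot times. AT2G43535, another defensin-like gene, had 168 and 152 at 6 h and 25.9 to 120.5 otherwise. AT4G01130, a GDSL-type lipase, had 143 and 127 at 6 h and 8.66 to 56.8 on the other shoot arrays.

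Chloroplast, starch and sugar genes formed a further group. PORB, which encodes a light-dependent enzyme of chlorophyll synthesis, had 714 and 825 at 0.5 h, 639 and 735 at 1 h, 1924 and 2127 at 3 h, 3513 and 2916 at 6 h, 685 and 839 at 12 h and 191 and 178 at 24 h. Its 3 h arrays were already above those of 0.5 and 1 h, and its 24 h arrays were the lowest. DPE1, the chloroplast disproportionating enzyme that acts in starch breakdown, had 78.7 and 77.5 at 0.5 h, 81 and 72.5 at 1 h, 239 and 274 at 3 h, 525 and 483 at 6 h, 274 and 340.0 at 12 h and 34.5 and 48 at 24 h in shoots, with the 12 h arrays above those of 3 h. AT3G55760, which encodes a protein of starch granules, had 176 and 103 at 6 h and 31.8 to 86.1 on the other shoot arrays, so that the 6 h arrays stood apart from each other. The 12 h arrays of DPE1 and AT3G55760 thus stayed above those of 0.5 and 1 h. AT1G70820, of the phosphoglucomutase family, had 1755 and 1761 at 6 h and 178 to 1145 at the other shoot times. AT4G30690, an organellar translation initiation factor, had 560.4 and 497 at 6 h and 80.5 to 332 otherwise, and AT5G27280, with a zinc finger of the Zim17 type found in organelle chaperone partners, had 673 and 623 against 49.1 to 321. BGLU44, a beta-glucosidase, had 1776 and 1548 at 6 h and 196 to 1026 at the other times.

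Chaperone and stress proteins formed another group. AT1G56300, a chaperone-type protein with a DnaJ domain, had shoot signals of 21.4 and 17.8 at 0.5 h, 19.7 and 20.8 at 1 h, 127 and 172 at 3 h, 710.5 and 655 at 6 h, 197 and 299 at 12 h and 12.7 and 9.9 at 24 h. Fes1B, of a family that exchanges the nucleotide on HSP70, had 314 and 263 at 6 h and 19.3 to 204 otherwise, and AT3G53990, a universal stress protein, had 1011 and 833 against 154 to 535. AT4G33980, a cold- and clock-regulated gene, was near the bottom of the scale at 4 of the 6 shoot times: it had 3.55 and 0.749 at 0.5 h, 1.18 and 0.584 at 1 h, 1.06 and 0.768 at 3 h, 154 and 148 at 6 h, 87.9 and 82.1 at 12 h and 1.56 and 0.516 at 24 h. It was high on the 6 h and 12 h arrays and on no other shoot array. AT4G30660, of the low temperature and salt responsive family of small membrane proteins, had 1050 and 902 at 6 h and 51.5 to 583 at the other shoot times. AT1G13930, linked to salt tolerance, had 6304 and 5103 against 559.7 to 3611.

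Of the regulators, AT3G47160, a RING-type protein of the kind that acts in ubiquitin transfer, had 124 and 115 at 0.5 h, 45.2 and 48.2 at 1 h, 227 and 259.5 at 3 h, 609 and 547 at 6 h, 232 and 256 at 12 h and 63.6 and 57.9 at 24 h in shoots. AT2G47890, a B-box zinc finger of the CONSTANS-like family, had 5.95 and 11.4 at 0.5 h, 6.62 and 15.2 at 1 h, 41.5 and 62.7 at 3 h, 184 and 172 at 6 h, 90.9 and 88 at 12 h and 5.11 and 11.2 at 24 h. Both had lower signals at 24 h than at 3 h and 12 h. AT1G76590, a PLATZ-type transcription factor, had 103 and 90.7 at 6 h and 60.6 and 50.5 at 0.5 h, its next highest time, and AT5G50450, with a MYND-type zinc finger, had 138 and 156 at 6 h and 19.1 to 93.2 otherwise. Both of these genes stood higher at 0.5 h than at 1 h. TUB5, a beta-tubulin, had 772 and 669 at 6 h and 109 to 483 otherwise, and WLIM2a, a LIM protein that bundles actin filaments, had 368 and 340.0 against 57.3 to 207.

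Transport and metabolic genes completed the named members with a known role. AT1G22570, of the nitrate and peptide transporter family, had 239.6 and 218 at 6 h and 32.5 to 112 at the other shoot times. The major facilitator proteins had 169 and 136 (AT1G64890) and 80.8 and 76.8 (AT2G16990) at 6 h, and the cation efflux protein AT1G51610 had 230.0 and 194. The transporter AT1G22570 had lower arrays at 24 h than at 0.5 h. ALDH6B2, which acts in valine breakdown, had 630.4 and 497 at 6 h and 150.0 to 369 otherwise. UGT85A5, a sugar-transferring enzyme, had 128 and 105 against 18.6 to 75.6. AT5G43440, an oxygenase that uses iron and 2-oxoglutarate, had 324 and 281 against 58.5 to 187, and AT3G51660, of the macrophage migration inhibitory factor family, had 105 and 93.5 against 18.5 to 66.3. AT4G17100, similar to a uridine-specific endoribonuclease, had 355 and 350.1 against 33.4 to 199.9. In these genes the 6 h arrays lay above all others and the 3 or 12 h mean was the next highest, apart from ALDH6B2, where that of 1 h was. AT3G47800, an aldose epimerase of the galactose mutarotase family, had 239 and 172 at 6 h and 43.4 to 117 otherwise, and AT3G43670, a copper amine oxidase, had 113 and 86.3 against 17.1 to 80.5. AT1G51090, with a heavy-metal-associated domain, had 78.3 and 55.1 against 0.879 to 40.3, and AT4G14230, with a CBS domain, had 199.8 and 218 against 38.2 to 129.

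The other named members with high scores are given without a role. At 6 h AT1G70420 had 168 and 174, AT1G48330 had 130.4 and 171, AT1G11210, a DUF761 protein, had 139 and 113, AT2G15960 had 1977 and 1672, AT1G12845 had 249.5 and 189, AT4G14270 had 548 and 607 and AT1G10770 had 47.5 and 32.5. Of these, AT1G11210 had 1.35 to 53.6 on the other shoot arrays, and AT1G10770 had 4.91 to 15.6, near the bottom of the scale. AT2G15960 and AT4G14270 differed in their early arrays: AT2G15960 had 801 and 859 at 0.5 h, its next highest time, and 146 and 68.4 at 24 h, and AT4G14270 had 47.1 and 50.2 at 1 h and 219.9 and 307 at 12 h. AT3G51400, AT1G21670, AT5G25210, AT4G31030, AT1G75190, AT1G13990, AT3G56720 and AT1G33970 had scores between 0.59 and 1.04.

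**Figure D2:**
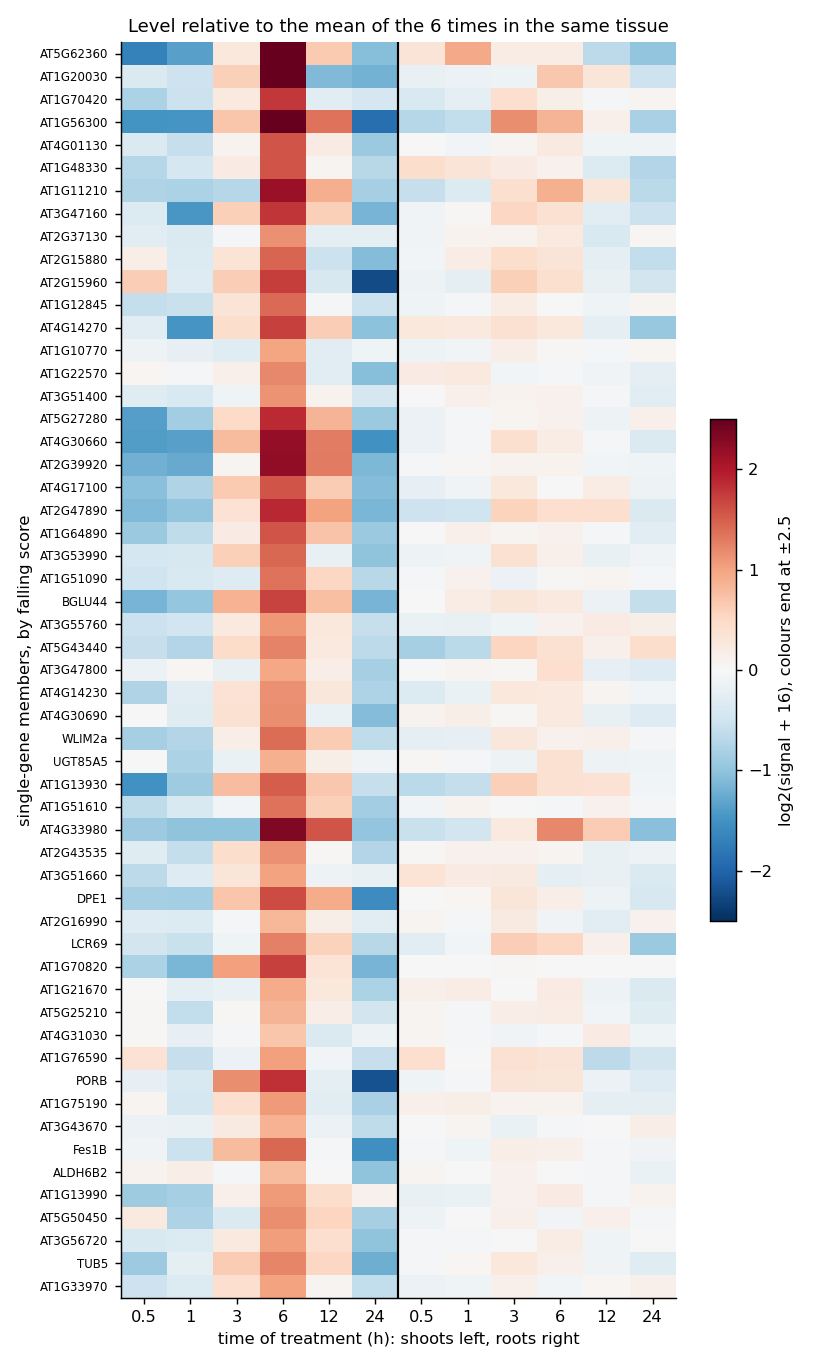
Group means of the 55 single-gene members relative to each gene's mean within the tissue, on the log2(signal + 16) scale, for shoots and roots at the 6 times. The shoot 6 h column is the highest for every gene by the rule. In roots the range between the lowest and the highest time is smaller for most genes, which the choice by shoot values favours.

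In roots most members had their highest mean at another time than 6 h. The highest root mean fell at 3 h for 50 members, against 20.6% of all probe sets. It fell at 6 h for 24, against 18.8%, so the 6 h count was near the share of all. Together these are 74 members, against 39.4% of all probe sets. These counts include members without a called change in roots, and 23 members lay below the array median on all 12 root arrays. At 6 h against 3 h only 1 member was called higher and 1 lower, so for most members the order of these times is not settled. The root mean was highest at 0.5, 1, 12 and 24 h for 7, 8, 8 and 3 members. Among all probe sets these shares were 14.8%, 10.3%, 14.6% and 20.9%. The lowest root mean was at 24 h for 51 members and for 22.8% of all probe sets. The range between a member's highest and lowest root mean had a median of 0.64 on the log2 scale, against 0.32 for all probe sets. For 98 members the range was smaller in roots than in shoots, where the median was 2.38. The rule chose members for a large shoot difference, so this comparison of ranges cannot tell whether roots changed less. Both root 6 h arrays lay above the other 10 root arrays for 10 members and for 2.94% of all probe sets, and below them for 0 members and 1.43% of all. Averaged over all times, 53 members had a higher level in shoots than in roots, with differences from -3.41 to 5.01 on the log2 scale and a median of 0.16.

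**Figure D3:**
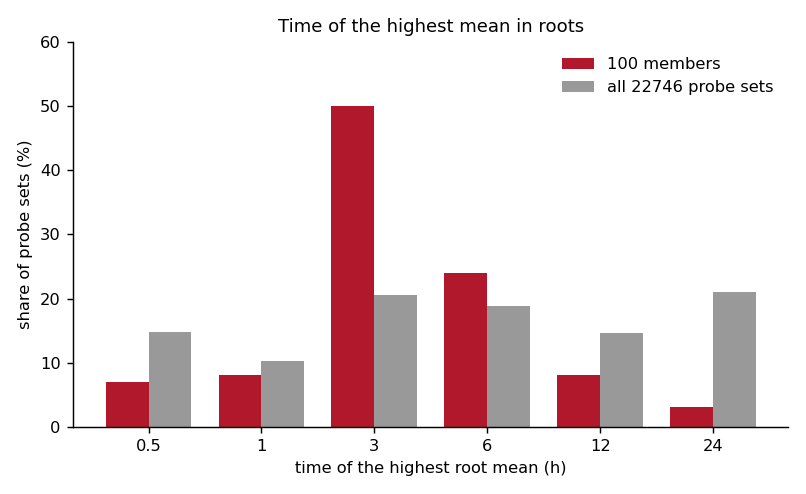
Share of probe sets, in percent, by the time of their highest root mean, for the 100 members (red) and for all 22746 probe sets (grey). The members' bars are at 50% for 3 h and 24% for 6 h, where those of all probe sets are at 20.6% and 18.8%.

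Each of the 22746 probe sets was fitted with limma and p-values were adjusted by the Benjamini and Hochberg method, with an adjusted p below 0.05 taken as a change. The labels do not state that the arrays of a group come from separate plants or cultures, so the p-values speak to the spread among these arrays alone, and that spread may be technical. Over the 6 root times 48 members changed, where 16.3% of all probe sets did. Of the 48, 31 were highest at 3 h, 9 at 6 h, 5 at 0.5 h, 2 at 1 h and 1 at 24 h. Their lowest time was 24 h for 28, 0.5 h for 14 and 12 h for 6.

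At 6 h against the mean of the other 5 root times, 12 members were higher, where 0.8% of all probe sets were, and 1 member was lower, where 0.541% were. The median difference was 0.20 over the members and 0.02 over all probe sets, and 82 members were above 0, against 56.6% of all. Without root 6 h array 1 the count of higher members was 5 and that of lower members 0. Over all probe sets 59.7% of the calls were higher as deposited and 46.0% when median centring was applied to the arrays. Of the 12 members, 6 were highest at 3 h and 6 at 6 h, and 10 had 12 h as their next highest shoot time while 2 had 3 h. The photosynthesis markers summed to 292 and 348 on the root 6 h arrays and to 235 to 481 on the other root arrays. The root markers summed to 3428 and 3561 against 3294 to 4205, so the 6 h arrays lay within the range of the others for both sums. The root marker sum rests mostly on PYK10, with a mean log2 value of 11.7 in roots, where EXPA7 had 5.64 and AT5G44020 had 7.91. It therefore tells little of the other root markers.

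The largest rise of a named member was that of AT4G33980. Its root signals were 7.73 and 16.8 at 0.5 h, 17.6 and 10.9 at 1 h, 31.3 and 33.6 at 3 h, 99.1 and 61.4 at 6 h, 53.5 and 42.1 at 12 h and 4.07 and 3.73 at 24 h. Both 6 h arrays were above the other 10, and the 24 h arrays were the lowest. The 6 h mean was 2.71-fold higher than the mean of the other times (1.44 ± 0.13 (SE) on the log2 scale, adjusted p = 1.58e-05), and the call held in all alternatives. It was also higher at 6 h than at 3 h (0.96 ± 0.17 (SE) on the log2 scale, adjusted p = 0.0156), a call that was lost without 3 h array 1 (adjusted p = 0.0946), 3 h array 2 (0.0989) or 6 h array 1 (0.0985), with a pseudocount of 1 (0.3) and with root arrays alone (0.0892).

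The DUF761 gene AT1G11210 had root signals of 14.3 and 13.7 at 0.5 h, 15.1 and 24.4 at 1 h, 41.2 and 46 at 3 h, 79.3 and 57 at 6 h, 40.5 and 37.7 at 12 h and 18.3 and 6.92 at 24 h. The 6 h arrays were again above all others, with the 3 and 12 h arrays next, and the 6 h mean was 2.1-fold higher than the others (1.07 ± 0.14 (SE) on the log2 scale, adjusted p = 0.00107). The DnaJ-domain gene AT1G56300 had 28.2 and 32.2 at 0.5 h, 35.6 and 31.8 at 1 h, 143 and 166 at 3 h, 123 and 118 at 6 h, 70.8 and 62.4 at 12 h and 30 and 25.2 at 24 h. Here the 3 h arrays were the highest and those of 6 h followed them, and 6 h was 2.02-fold higher than the other times on average (1.01 ± 0.12 (SE) on the log2 scale, adjusted p = 0.000342). The call for AT1G56300 held in all alternatives, and that for AT1G11210 was lost without root 6 h array 1 (adjusted p = 0.0513).

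The thaumatin-like gene AT1G20030 had 18.2 and 25.1 at 0.5 h, 20.3 and 24.5 at 1 h, 19.4 and 26.5 at 3 h, 44.6 and 60.4 at 6 h, 33.2 and 40.2 at 12 h and 10.9 and 16.4 at 24 h in roots, with the 6 h arrays above the rest and 1.76-fold higher on average (0.82 ± 0.16 (SE) on the log2 scale, adjusted p = 0.0193). The call was lost without either 6 h array (adjusted p = 0.061 and 0.241) and with a pseudocount of 1 (0.308). The RING-type gene AT3G47160 had 264 and 279 at 0.5 h, 312 and 284 at 1 h, 440.5 and 408 at 3 h, 398 and 368 at 6 h, 227 and 247 at 12 h and 214 and 180.2 at 24 h. Its 3 h arrays were the highest and its 24 h arrays the lowest. The 6 h mean was 1.36-fold above the mean of the other times (0.45 ± 0.08 (SE) on the log2 scale, adjusted p = 0.00739). This call was lost without root 6 h array 1 (adjusted p = 0.126).

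**Figure D4:**
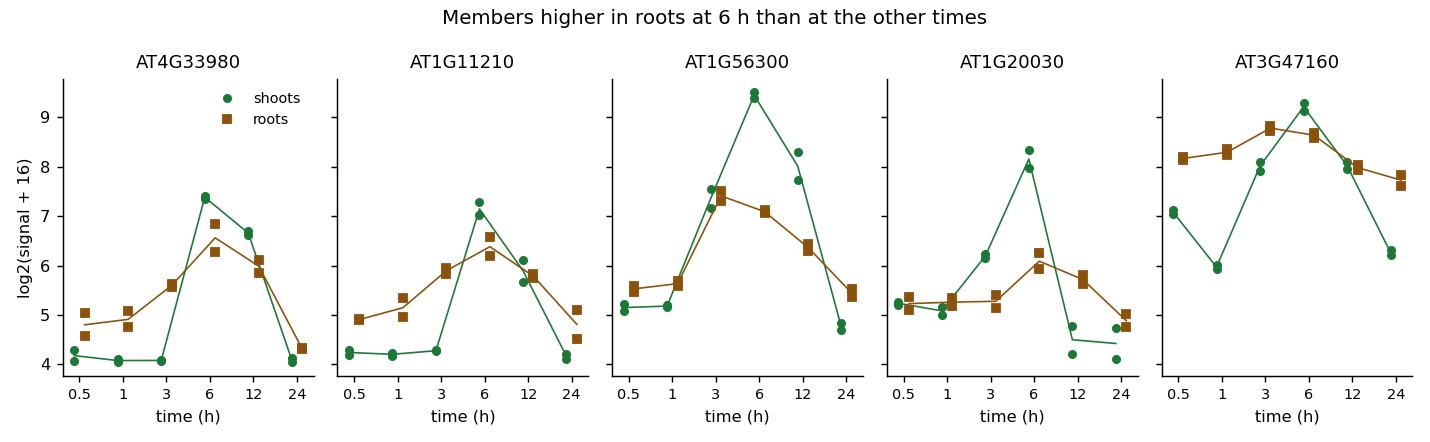
Values of each array against time, on the log2(signal + 16) scale, for 5 single-gene members. These were the ones higher in roots at 6 h than the mean of the other 5 times. Shoots are green circles, roots are brown squares and lines run through the group means. AT4G33980, AT1G11210 and AT1G20030 have their highest root mean at 6 h, and AT1G56300 and AT3G47160 have it at 3 h.

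The other 7 members that were higher at 6 h have no single gene in the table, and 3 of them are described. The probe set with the highest score of all, 249741_at, had shoot signals of 15.8 and 5.75 at 0.5 h, 1.7 and 7.16 at 1 h, 26.9 and 36.7 at 3 h, 411 and 428 at 6 h, 51.5 and 56.5 at 12 h and 5.73 and 3.65 at 24 h. In roots it had 39.9 and 30.9 at 0.5 h, 63.2 and 77 at 1 h, 163 and 193 at 3 h, 163 and 164 at 6 h, 105 and 85.9 at 12 h and 47 and 39.8 at 24 h, a plateau over 3 and 6 h. The 6 h mean was 2.02-fold above the mean of the other times (1.01 ± 0.14 (SE) on the log2 scale, adjusted p = 0.00107, lost with a pseudocount of 1 at adjusted p = 0.11). The second score was that of 267461_at, with 2811 and 2048 at 6 h and 25.6 to 400.0 on the other shoot arrays. In roots it had 1303 and 1549 at 0.5 h, 1690 and 2101 at 1 h, 2996 and 2933 at 3 h, 2255 and 2496 at 6 h, 849 and 988 at 12 h and 566 and 483 at 24 h, so that it was highest at 3 h. The 6 h mean was 1.8-fold above the mean of the other times (0.85 ± 0.15 (SE) on the log2 scale, adjusted p = 0.0076). That call was lost without either 6 h array (adjusted p = 0.0586 and 0.107).

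The third, 261613_at, was singled out after its values were seen, for the second largest rise among the 12. Its root signals were 40.3 and 55 at 0.5 h, 60 and 54.5 at 1 h, 111 and 95.9 at 3 h, 160.3 and 119 at 6 h, 75.3 and 68.7 at 12 h and 21 and 25 at 24 h, with both 6 h arrays above the other 10, and its shoot signals were 176 and 146 at 6 h and 8.26 to 61.2 otherwise. The 6 h root mean was 2.15-fold above the other times (1.11 ± 0.12 (SE) on the log2 scale, adjusted p = 0.000125), and among the 7 only this call held in all alternatives. The least stable of the 7 (0.68 on the log2 scale, adjusted p = 0.0469) was lost in 9 of the 12 fits that left out 1 root array and under 6 of the 10 other settings, with adjusted p of up to 0.564.

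The 1 member lower at 6 h was 262226_at, which carries several genes. Its root signals were 225 and 311 at 0.5 h, 73.2 and 79.5 at 1 h, 47.2 and 41.9 at 3 h, 27.1 and 32.9 at 6 h, 14.7 and 18.4 at 12 h and 43 and 31.6 at 24 h, highest at 0.5 h, while its shoot signals were 64.4 and 70 at 6 h and 0.313 to 16.4 otherwise. The 6 h root mean was 1.68-fold lower than the mean of the other times (-0.75 ± 0.14 (SE) on the log2 scale, adjusted p = 0.0108). The call was lost without root 6 h array 1 (adjusted p = 0.161) and with a pseudocount of 1 (0.475). Its lowest root arrays were those of 12 h, and 6 h against 3 h did not pass by limma (adjusted p = 0.375).

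Against 3 h alone, 1 member was higher at 6 h in roots, AT4G33980, where 0.312% of all probe sets were higher, and 1 was lower, where 0.334% were. The lower one was 261821_at, with 111 and 113 at 6 h and 279 and 276 at 3 h (2.29-fold lower, -1.20 ± 0.18 (SE) on the log2 scale, adjusted p = 0.00415). The median difference of the members was -0.06, against 0.01 for all probe sets. The higher count was 0 without either 3 h array. This comparison and those that follow share the root 6 h arrays or the 0.5 and 24 h arrays with the one above, so they are not independent of it.

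At 12 h against 6 h in roots, 7 members were lower, where 0.198% of all probe sets were, and 0 were higher by limma, where 0.233% were. At an unadjusted p below 0.05, 37 members differed in either direction, where 10.1% of all probe sets did. The median difference was -0.26 over the members and -0.02 over all probe sets. The 7 were 3 named genes and 4 unnamed members. AT1G76590, the PLATZ-type factor, had 29.3 and 37.5 at 12 h and 81.1 and 81 at 6 h and was 1.97-fold lower (-0.98 ± 0.17 (SE) on the log2 scale, adjusted p = 0.0114). AT5G62360, the inhibitor-family gene, had 8.87 and 11.2 at 12 h and 27.7 and 34 at 6 h and was 1.8-fold lower (-0.85 ± 0.15 (SE) on the log2 scale, adjusted p = 0.0183), and AT3G47160 was 1.58-fold lower (-0.66 ± 0.10 (SE) on the log2 scale, adjusted p = 0.00395). The count of lower members was 1 without root 6 h array 1 and 2 without root 12 h array 1. Over all probe sets, the 53 higher and 45 lower calls became 22 and 21 without root 6 h array 1, 50 and 108 without root 6 h array 2, 32 and 52 without root 12 h array 1, and 55 and 22 without root 12 h array 2. Without those arrays in turn the adjusted p of AT1G76590 was 0.083 and 0.104 and that of AT3G47160 was 0.0653 and 0.0511, and the call for AT5G62360 was lost without any 1 of the 6 and 12 h arrays, at adjusted p = 0.0568 to 0.115. With root arrays alone it was 0.0572 for AT5G62360 and 0.0857 for AT1G76590.

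The times 24 h and 0.5 h stood at 3 h and 3.5 h after lights on, so this comparison is between nearly equal hours of the day. In roots 22 members were lower at 24 h, where 6.68% of all probe sets were, and 5 were higher, where 6.4% were. The median difference was -0.14 over the members and 0.02 over all probe sets. Of the 22, 16 also had a lower shoot mean at 24 h than at 0.5 h, as 74 of all 100 members had, and 4 of the 5 higher members had a higher one. The lower count was 9 without root 0.5 h array 2 and 12 without root 24 h array 1, and the higher count was 3 without either 0.5 h array or without 24 h array 1. Of these members, 14 of the lower and 3 of the higher have no single gene in the table.

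Among the 8 named genes that fell, AT5G62360 had root signals of 36.6 and 33.3 at 0.5 h, 64.6 and 62.5 at 1 h, 37.2 and 25.1 at 3 h, 27.7 and 34 at 6 h, 8.87 and 11.2 at 12 h and 6.95 and 2.57 at 24 h. It was highest at 1 h and near the bottom of the scale at 24 h, 2.47-fold lower than at 0.5 h (-1.30 ± 0.15 (SE) on the log2 scale, adjusted p = 2.72e-05). AT4G14270 had 416 and 475 at 0.5 h, 424 and 446 at 1 h, 479.8 and 488 at 3 h, 413 and 477 at 6 h, 303 and 323 at 12 h and 181 and 180.1 at 24 h, level until 6 h and lower afterwards, and fell 2.34-fold (-1.23 ± 0.15 (SE) on the log2 scale, adjusted p = 3.26e-05). AT1G48330 had 17.7 and 32.5 at 24 h and 72.3 and 75.9 at 0.5 h (2.23-fold lower, -1.16 ± 0.22 (SE) on the log2 scale, adjusted p = 0.00163). These 3 calls held in all alternatives. AT1G76590 had 42 and 38.6 at 24 h and 73.9 and 103 at 0.5 h (-0.88 ± 0.17 (SE) on the log2 scale, adjusted p = 0.00211), and the call was lost without 0.5 h array 2 (adjusted p = 0.0531).

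The other 4 that fell did so by less. AT3G51660 had 35.3 and 41.5 at 24 h and 79.5 and 67.5 at 0.5 h (-0.72 ± 0.16 (SE) on the log2 scale, adjusted p = 0.00675), and BGLU44 had 42 and 55.2 against 75.8 and 89.8 (-0.62 ± 0.18 (SE) on the log2 scale, adjusted p = 0.0272). AT3G47160 had 214 and 180.2 against 264 and 279 (-0.44 ± 0.10 (SE) on the log2 scale, adjusted p = 0.00718), and DPE1 had 42.9 and 48.3 against 65.1 and 64.2 (-0.39 ± 0.12 (SE) on the log2 scale, adjusted p = 0.0442). Each of these calls was lost without some of the root arrays: 2 of 12 for AT3G51660 (adjusted p = 0.0748 to 0.0795) and for AT3G47160 (0.0757 to 0.0919), 3 for BGLU44 (0.0571 to 0.252) and 8 for DPE1 (0.0531 to 0.267).

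The 2 named genes higher at 24 h in roots were AT5G43440 and AT1G13930. AT5G43440, the oxygenase, had 7.64 and 10.3 at 0.5 h, 10.1 and 13.4 at 1 h, 50 and 46.2 at 3 h, 38.9 and 43.9 at 6 h, 30.5 and 34 at 12 h and 43 and 44.4 at 24 h in roots. Both arrays at 3 h and later were above all 4 arrays at 0.5 and 1 h, and 24 h was 2.39-fold higher than 0.5 h (1.26 ± 0.15 (SE) on the log2 scale, adjusted p = 4.17e-05), in all alternatives. The 0.5 h arrays of AT5G43440 were near the bottom of the scale, so the size of this fold depends on the pseudocount. AT1G13930, the salt-related gene, had 892 and 858 at 0.5 h, 863 and 1009 at 1 h, 2195 and 2122 at 3 h, 1831 and 1874 at 6 h, 1735 and 1912 at 12 h and 1420 and 1263 at 24 h and was 1.52-fold higher (0.61 ± 0.16 (SE) on the log2 scale, adjusted p = 0.018). Its call was lost without either 0.5 h array (adjusted p = 0.0715 and 0.117) or 24 h array 1 (0.154).

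**Figure D5:**
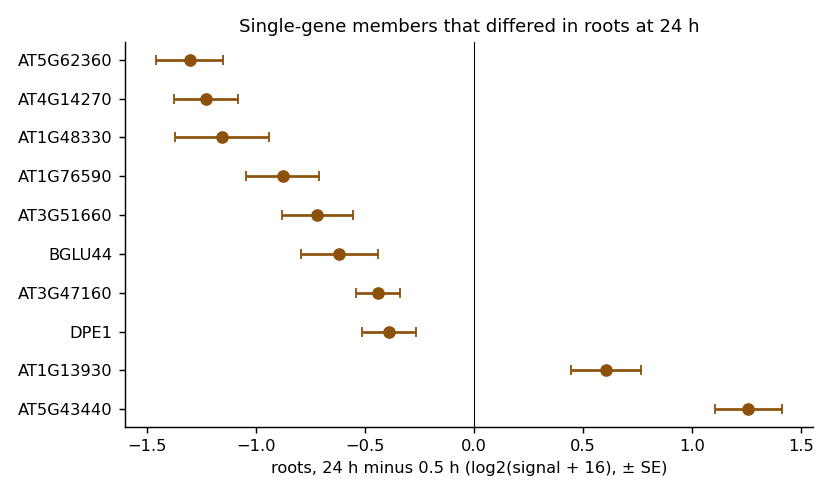
Difference in roots at 24 h minus 0.5 h on the log2(signal + 16) scale, with the limma standard error, for the 10 single-gene members that passed the test, from the lowest to the highest. The 8 genes left of 0 run from -1.30 for AT5G62360 to -0.39 for DPE1, and AT1G13930 (0.61) and AT5G43440 (1.26) are right of it.

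Several named members changed over the root times without passing in a single comparison. The defensin-like LCR69 had 847 and 733 at 0.5 h, 874 and 950.0 at 1 h, 1448 and 1513 at 3 h, 1291 and 1470 at 6 h, 1034 and 1066 at 12 h and 566 and 432 at 24 h (adjusted p over all times = 0.00353), with the 3 and 6 h arrays highest and the 24 h arrays lowest. PORB had 27.2 to 64.6 over the 12 root arrays with its highest mean at 3 h (adjusted p = 0.0172), a call lost without 3 h array 1 (0.0581) or 24 h array 1 (0.0635), with root arrays alone (0.0585) and with a pseudocount of 64 (0.12). The B-box gene AT2G47890 had 118 and 151 at 0.5 h, 138 and 134 at 1 h, 278 and 326 at 3 h, 400.3 and 184 at 6 h, 258 and 289.6 at 12 h and 165 and 138 at 24 h (adjusted p = 0.00589), and its 6 h arrays stood far apart. With a pseudocount of 1 the adjusted p of AT2G47890 was 0.0742. AT4G30660 had 288 and 318 at 3 h and 169 to 265 on the other root arrays (adjusted p = 0.00835). WLIM2a had 339 and 312 at 3 h and 212 to 298 otherwise (adjusted p = 0.0171), lost without 0.5 h array 1 (0.0577) or 3 h array 1 (0.0684).

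Some named members had root signals near the bottom of the scale. AT1G70820, at 1755 and 1761 in shoots at 6 h, had 0.543 to 1.44 over the 12 root arrays, and AT2G39920, an acid phosphatase of the HAD type, had 204 and 196 in shoots at 6 h and 1.94 to 8 in roots. AT4G01130 had 0.829 to 8.03 and Fes1B 7.53 to 17.8 in roots. At such signals a change could not be told from background, since detection calls were not used here. AT2G37130, the peroxidase, stood higher in roots than in shoots, with 22.6 to 118 over the shoot arrays and 430.2 to 860.2 over the root arrays. AT3G53990 and ALDH6B2 had 1069 to 1760 and 479 to 624 in roots.

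Of 10 gene lists with 188 genes, 36 genes had a probe set of their own in the annotation table and are called measured here. The table does not list 8730 probe sets, so a gene without one there may still be on the array. Of the 36, 2 were members: AT4G33980 in the cold and drought list and DPE1 in the starch list. COR15A, COR15B, LTI30 and COR47 of the cold and drought list, and GI, could not be members, as the rule left them out. The lists were drawn up with earlier results of these data known, so they are not independent of them. At 6 h against the other root times, 2 of 7 cold and drought genes were higher and 0 lower by limma, with a list median of 0.41. Of all probe sets 0.8% were higher and 0.541% lower. The 2 genes were AT4G33980 and COR27, which was 1.38 ± 0.11 higher (SE, log2 scale, adjusted p = 3.42e-06). Of the 7, 2 were higher at 6 h than at 3 h (0.312% of all probe sets) and 1 was lower at 12 h than at 6 h (0.198%). At 24 h against 0.5 h, 2 were lower (6.68% of all), LTI30 (-1.01) and COR47 (-0.88), both left out by the rule. In each comparison 0 went the other way. Of 5 starch genes 0 were higher and 1 was lower, SBE2.2, a starch branching enzyme (-0.58 ± 0.10, adjusted p = 0.0074), a call lost without root 6 h array 2 (adjusted p = 0.155). Of the same 5, 1 was lower at 6 h than at 3 h (0.334% of all probe sets). At 12 h against 6 h 0 passed, and 2 were lower at 24 h than at 0.5 h (6.68% of all). GI, left out by the rule and the only measured gene of the evening clock list, was 0.73 ± 0.14 higher at 6 h (adjusted p = 0.0161), a call lost without either root 6 h array (adjusted p = 0.168 and 0.0899).

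Of the other lists, 1 of the 2 morning clock genes was lower at 12 h than at 6 h and 1 was higher at 24 h than at 0.5 h. Of 3 flavonoid genes 1 was higher at 12 h than at 6 h and 1 at 24 h than at 0.5 h. At 24 h 1 of 3 sulphate and nitrate genes was lower, and the 1 light signalling gene was higher. GI was lower at 12 h than at 6 h. Of all probe sets, 0.233% were higher and 0.198% lower at 12 h than at 6 h. At 24 h against 0.5 h, 6.4% were higher and 6.68% lower. The counts come from few genes, in lists drawn up with earlier results known, and are no test. None of the 4 heat shock genes passed in any of the 4 comparisons by limma, and no jasmonate gene had a probe set of its own in the annotation table.

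Of 10 measured genes of the DNA damage response, which repair DNA or halt division after breaks, none was a member. This list too was drawn up with earlier results of these data known, so its counts are not independent of them and are no test. At 24 h in roots all 10 were higher than at 0.5 h, where 6.4% of all probe sets were. At 6 h 4 of the 10 were higher than the mean of the other 5 root times, where 0.8% of all probe sets were, and 0 were lower. The 4 were AT4G22960 (1.05 ± 0.15, adjusted p = 0.00131), ATMND1 (0.77 ± 0.15, adjusted p = 0.0136), AT2G18600 (0.75 ± 0.17, adjusted p = 0.0361) and AT2G47680 (0.59 ± 0.14, adjusted p = 0.0477), each as a log2 difference with its SE. The call held in all alternatives for AT4G22960, was lost without either 6 h array for ATMND1 (adjusted p = 0.0725 and 0.163), and was lost in 8 of 22 alternatives for AT2G18600 and in 17 of 22 for AT2G47680. None of the 10 passed at 6 h against 3 h or at 12 h against 6 h, so the calls do not set 6 h apart from 3 h or 12 h.

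By locus number, 6 pairs of named members had at most 9 protein-coding genes between them, the limit set here, and the pairs found had 1 to 5. They are TUB5 and AT1G20030, WLIM2a and AT2G39920, AT2G15880 and AT2G15960, AT4G30660 and AT4G30690, AT4G14230 and AT4G14270, and AT1G13930 and AT1G13990. AT1G20030 was higher at 6 h in roots and TUB5 passed in none of the 4 comparisons, AT4G14270 was lower at 24 h and AT4G14230 passed in none, and AT1G13930 was higher at 24 h and AT1G13990 passed in none. Whether the partners differ from each other was not tested, and the number of pairs was not set against that of other gene sets.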

How the data were processed

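Total RNA was hybridised to ATH1 arrays, and the deposited values are linear signal intensities from the authors' MAS5 step (per the submitters' processing notes). Its version and settings are not given in the sources used here, and each array's mean without its lowest and highest 2% was 100. Of 22810 probe sets, 64 array controls were set aside. Detection calls were not used here, and the number of arrays, not a read depth, limits the precision.

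The members, the gene lists and the rule for named genes were chosen with earlier results of these data known. Named were the 15 highest-scoring members with 1 gene, the largest rises and falls among members with 1 gene that passed in roots at 6 h (up to 6 each way, of which 5 and 0 passed), members in a list or with a symbol or known role, and the 3 probe sets on either side of the limit. Gene names came from the annotation table of the array, where 13513 carry 1 gene, 503 several and 8730 are not listed.

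Values of log2(signal + 16) from all 24 arrays entered limma 3.58.1 (R 4.3.3), with a mean per group, an intensity trend, and 12 residual and 4.91 prior degrees of freedom. The 4 root contrasts and a test over all times were run, each adjusted over all 22746 probe sets. A fold is on the log2(signal + 16) scale and understates the change of dim probe sets. The fit was tested on simulated data. The alternatives were a pseudocount of 1 or of 64, quantile normalization (all arrays together, or each tissue), median centring, no intensity trend, root arrays alone, no probe sets from the dimmest 30%, a replicate block, each array left out in turn and, chosen after seeing the data, no shoot arrays of the pair nearest to the roots. Tables came from pandas 2.3.3 under Python 3.11.15 with numpy 2.4.6, and figures from matplotlib 3.10.9.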

Additional observations from a re-analysis of the deposited data

How the results depend on the processing

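No gene's or probe set's difference given as a call in the 4 root comparisons changed sign in any alternative run. At 6 h against the other root times the 12 higher members ranged from 5 to 12 as root arrays were left out in turn, and the 1 lower member from 0 to 1, with 0 at a pseudocount of 1. At 6 h against 3 h the 1 higher member became 0 at a pseudocount of 1, 2 at a pseudocount of 64, 0 with root arrays alone, 2 without the pair of shoot arrays nearest to the roots, and 0 to 1 with arrays left out. At 12 h against 6 h the 7 lower members ranged from 1 to 7, and at 24 h against 0.5 h the 5 higher from 3 to 5 and the 22 lower from 9 to 22. The members that changed over the root times numbered 42 to 53 over all alternatives. With the replicate block, 11 members were higher and 1 lower at 6 h, 6 were lower at 12 h, 5 were higher and 20 lower at 24 h, and 47 changed over time. Deviations of arrays with the same number correlated at -0.19 to 0.11 over 15 root pairs, 1 of them over 0.1. Over 15 shoot pairs they correlated at -0.11 to 0.20, 2 of them over 0.1. No strong shift was thus common to a number, but whether arrays with the same number share plants or a batch cannot be told from this. Of the 49 member calls in the 4 comparisons, 16 held in all alternatives, 17 without any 1 root array and 32 under the other settings.

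The rule kept 57 of the 100 members at a pseudocount of 1 and 83 to 100 with arrays left out. Over all probe sets, 305 calls at 6 h became 158 at a pseudocount of 1, 471 at 64, and 111 without root 6 h array 1. At 6 h against 3 h, 147 became 72 and 303 at those pseudocounts, 38 with root arrays alone, 89 and 39 without either 3 h array and 64 without 6 h array 2. At 12 h against 6 h, 53 higher and 45 lower calls became 29 and 38 at a pseudocount of 1, 105 and 74 at 64, 22 and 21 without 6 h array 1, 50 and 108 without 6 h array 2, 32 and 52 without 12 h array 1, and 55 and 22 without 12 h array 2. At 24 h, 2975 became 1714 and 1364 without either 0.5 h array and 1368 without 24 h array 1. The balance between higher and lower calls over all probe sets did turn: after median centring 114 of 248 calls at 6 h were higher (46.0%, against 59.7% as deposited), and the median difference of all probe sets was -0.01, against 0.02, while that of the members was 0.17, against 0.20.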
